A study of Homo sapiens with 3 samples.

Results

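The genes described here are the protein-coding members of the 4 replication-type histone clusters, which the table names HIST1, HIST2, HIST3 and HIST4. They were taken as every row of type protein_coding whose symbol opens with HIST, a cluster number and H. This gave 65 genes of 29960 listed: 6 for the linker histone H1, 15 for H2A, 15 for H2B, 14 for H3 and 15 for H4. On hg19, the build in the submitters' processing notes, 51 of them lay in HIST1 between chr6:26017260 and chr6:27861669, 11 in HIST2 between chr1:149754245 and chr1:149859466, 2 in HIST3 on chromosome 1 and 1 in HIST4 on chromosome 12.

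The RNA came from 5637, an established human bladder cancer cell line, and from a derivative made resistant to gemcitabine, a nucleoside analogue that blocks DNA synthesis. Library parental 1 was the wild-type, untreated line, and libraries resistant 1 and resistant 2 were its gemcitabine-resistant derivative, grown in the same serum-containing RPMI medium. By the study's methods the libraries came from single-cell clones of this 1 line, so a difference between 2 libraries can be a difference between 2 clones. The comparison asks which histone genes a poly-T library of these cells read at all, and how each resistant library differed from the parental one.

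Histones are the proteins around which DNA is wound: H2A, H2B, H3 and H4 form the core particle and H1 binds the linker DNA between particles. Most of their mRNA is made in S phase, when new DNA has to be packaged, and ends in a conserved stem-loop in place of a poly(A) tail. The stem-loop binding protein SLBP and the U7 particle, with its LSM10 and LSM11 subunits, make that end. A library built from RNA captured on poly-T therefore does not select such mRNA, and reads the polyadenylated transcripts that some of these genes also make, together with what carries over.

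The stem-loop was found in the GENCODE 29 transcripts (GRCh38) of 31 of the 65 genes, in 6 forms of 16 bases, and 1 gene of each form is shown because it is the end at which a tail-less transcript would stop. Capitals mark the stem-loop, and 5 bases stand on each side. HIST2H2BE (minus strand of chr1:149886183-149886208) has the form shared by 16 genes. HIST1H2BD (plus strand of chr6:26158582-26158607) has a form shared by 5 genes. HIST1H4H (minus strand of chr6:26285126-26285151) has another form shared by 5 genes. HIST1H4I (plus strand of chr6:27139649-27139674) has a form shared by 3 genes. HIST1H3E (plus strand of chr6:26225591-26225616) and HIST1H2AG (plus strand of chr6:27133510-27133535) each have a form of their own.
HIST2H2BE: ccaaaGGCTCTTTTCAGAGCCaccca
HIST1H2BD: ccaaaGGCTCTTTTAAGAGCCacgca
HIST1H4H: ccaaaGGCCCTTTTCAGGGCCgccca
HIST1H4I: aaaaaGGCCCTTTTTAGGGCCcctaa
HIST1H3E: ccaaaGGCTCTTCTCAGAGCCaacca
HIST1H2AG: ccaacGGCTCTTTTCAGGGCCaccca

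In 20 of these 31 genes a GENCODE 29 transcript ran on for at least 300 bases past the stem-loop, by 1729 bases in HIST2H2BE, 1761 in HIST1H2AG and 1655 in HIST1H4H. In HIST1H2AE, whose longest listed end lay 51 bases past it, no such run-on was annotated. A gene without a match, such as HIST1H2BK or HIST1H1C, is one whose listed transcripts do not hold these letters. The listed transcript of HIST1H2BK (381 bases, coding length 378) ended with the coding sequence, as did that of HIST1H1C (642 bases, coding length 639). Many other unmatched genes were listed in the same way, and such transcripts could not show a stem-loop past the coding sequence.

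The 150 bases before the RefSeq start (GRCh38.p14) of the 5 genes with the most reads are shown, because these genes carried most of the histone reads. Capitals mark a CCAAT box (CCAAT), an octamer (ATTTGCAT) or a TATA box (TATAAA), each searched on both strands. HIST1H2BK lies on the minus strand (chr6:27146859-27147008), HIST1H1C on the minus strand (chr6:26056471-26056620), HIST1H2BD on the plus strand (chr6:26157971-26158120), HIST2H2BE on the minus strand (chr1:149886683-149886832) and HIST1H2AC on the plus strand (chr6:26124022-26124171).
HIST1H2BK: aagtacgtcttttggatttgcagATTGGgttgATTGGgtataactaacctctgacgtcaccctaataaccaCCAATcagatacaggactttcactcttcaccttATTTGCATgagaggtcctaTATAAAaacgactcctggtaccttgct
HIST1H1C: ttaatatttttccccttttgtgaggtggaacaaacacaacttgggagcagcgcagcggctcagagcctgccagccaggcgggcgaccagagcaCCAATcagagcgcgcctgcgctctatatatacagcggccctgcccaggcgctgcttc
HIST1H2BD: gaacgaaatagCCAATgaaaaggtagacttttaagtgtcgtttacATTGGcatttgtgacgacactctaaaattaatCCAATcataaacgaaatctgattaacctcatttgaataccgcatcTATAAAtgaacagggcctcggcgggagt
HIST2H2BE: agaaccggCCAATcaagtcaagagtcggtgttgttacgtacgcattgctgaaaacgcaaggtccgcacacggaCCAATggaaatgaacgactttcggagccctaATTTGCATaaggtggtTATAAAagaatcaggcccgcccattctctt
HIST1H2AC: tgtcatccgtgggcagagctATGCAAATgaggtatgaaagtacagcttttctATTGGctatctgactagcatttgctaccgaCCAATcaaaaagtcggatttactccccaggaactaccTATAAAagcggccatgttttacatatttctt

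Over the 250 bases before the start, 55 histone genes matched a RefSeq promoter, and the octamer was present in 17 of them (30.9%), against 1.63% of 35116 promoters. The octamer, the element that OCT1 binds in H2B promoters, was found in 9 of 14 H2A, 7 of 10 H2B, 1 of 12 H3, and 0 of 6 H1 and 0 of 13 H4 promoters. The H2A and H2B counts are not of separate stretches. Opposite-strand pairs such as HIST2H2AC with HIST2H2BE, and HIST1H2AG with HIST1H2BJ, have overlapping promoters, so 1 octamer can count for both classes. The CCAAT box was in 45 of 55 (81.8%, against 32.0% of all promoters) and the TATA box in 37 of 55 (67.3%, against 10.7%). The letters AT that end CCAAT also open the octamer, so matches of these motifs can overlap.

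The 3 libraries held 14475531 (parental 1), 15836788 (resistant 1) and 17461941 (resistant 2) reads on genes, and a gene was counted as read above the floor where it had more than 3 reads. All 8 epithelial markers were above the floor in every library, KRT19 at 4306, 3590 and 4784 CPM, but KRT5, a basal keratin, was at 272 CPM in parental 1 against 9.78 and 13.8 CPM in the resistant libraries (edgeR log2 difference -4.52, adjusted p = 0.0006). CPM here stands for counts per 1000000 reads after TMM scaling. Of 8 markers of leukocytes, endothelium, muscle and fibroblasts found in the table, COL1A1 (113, 96.8 and 61.2 CPM) and COL1A2 (59.3, 57.8 and 84.0 CPM) were well above the floor, ACTC1 was at 0 in all 3 libraries, and the others had at most 5 reads. The 8 summed to 173, 155 and 146 CPM. COL1A1 was lowest in resistant 2, as most histone genes were, but COL1A2 was highest there. The part of either in the histone values was not tested. In RNA of whole cultures, fewer cells of a type (cells in S phase, for example) and less RNA per cell cannot be told apart.

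Most histone genes had a read in each library, but few had more than a handful. At least 1 read was present for 55 genes in parental 1, 55 in resistant 1 and 54 in resistant 2. More than 3 reads were present for 37, 37 and 30 genes, and at least 1 CPM for 18, 19 and 7 genes. The median gene had 5, 5 and 3 reads. Above the floor in all 3 libraries were 25 genes, in 2 libraries 11, in 1 library 7 and in none 22. The genes at 0 reads in all 3 were HIST1H1T, the testis form of H1, and HIST1H1A, HIST1H2AB and HIST1H4F; at 0 reads a share of up to 0.213 CPM in parental 1, 0.183 CPM in resistant 1 and 0.173 CPM in resistant 2 remains possible.

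The reads were concentrated on a few genes. HIST1H1C, HIST1H2AC, HIST1H2BD, HIST1H2BK and HIST2H2BE had the highest mean CPM, from 7.41 to 25.6 CPM. They are also the 5 genes listed for this work as known to make polyadenylated transcripts. That list was made with earlier results of these data known, so the match is no separate evidence. The next gene, HIST1H2AG, had a mean of 3.98 CPM. Together the 5 genes held 66.8% of histone reads in parental 1, 70.6% in resistant 1 and 68.9% in resistant 2.

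**Figure D1:**
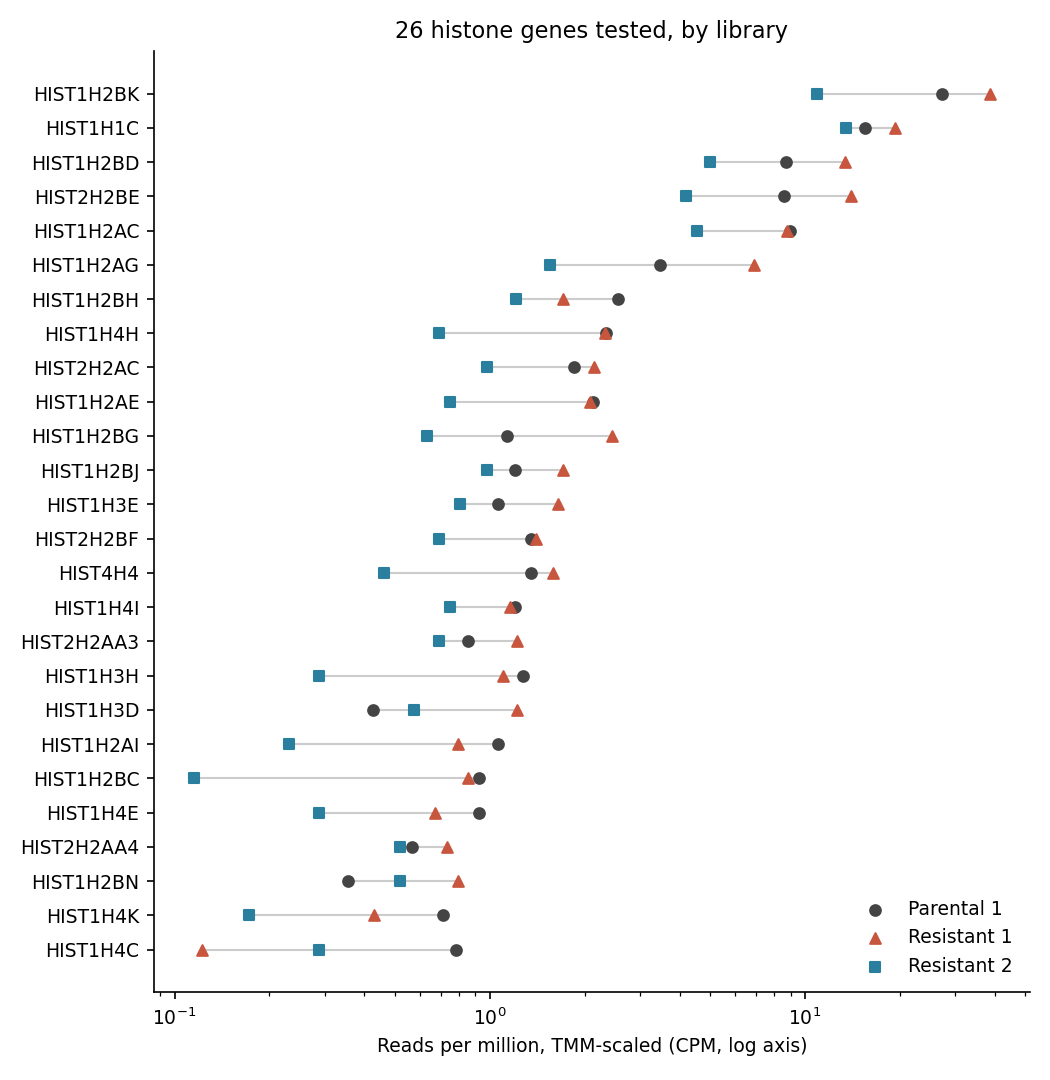
CPM (TMM-scaled, log axis) of the 26 histone genes with enough reads to be tested, one row per gene in order of mean CPM and one point per library. HIST1H2BK leads at 27.2, 38.6 and 10.9 CPM, 5 genes have a mean of at least 5 CPM, and resistant 2 is the lowest library in most rows.

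Compared per length, as FPKM (fragments scaled by library size and by the length of the gene model), the leading gene was not the same in every library. HIST1H2BK, an H2B gene, ranked 1 in parental 1 (32.3 FPKM) and resistant 1 (48.7 FPKM) and 2 in resistant 2 (13.3 FPKM). HIST1H1C, the gene for the linker histone H1.2, ranked 2 in parental 1 (20.6 FPKM) and resistant 1 (27.3 FPKM) and 1 in resistant 2 (18.4 FPKM). HIST1H2BD ranked 3 in each, at 10.8, 17.53 and 6.31 FPKM. Below these the order varied: HIST1H2BH ranked 4 in parental 1 (5.85 FPKM) and 8 in resistant 1 (4.16 FPKM), and HIST1H2BG ranked 10 in parental 1 (2.48 FPKM) and 5 in resistant 1 (5.68 FPKM).

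Reads also went with the length of the gene model. In 18 genes the table's gene model was at least 300 bases longer than the coding sequence; 13 of these were tested, and they held 959, 1555 and 560 reads, with a median gene at 17, 21.5 and 12 reads. The other 47 genes, of which 13 were tested, held 495, 625 and 404 reads, with a median gene at 3, 2 and 2 reads. HIST1H1C was in the second set and accounted for 218, 316 and 235 of its reads. A longer model also offers more bases to read, and per length the median gene stood at 0.863, 1.34 and 0.659 FPKM in the first set against 0.369, 0.304 and 0.245 FPKM in the second.

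**Figure D2:**
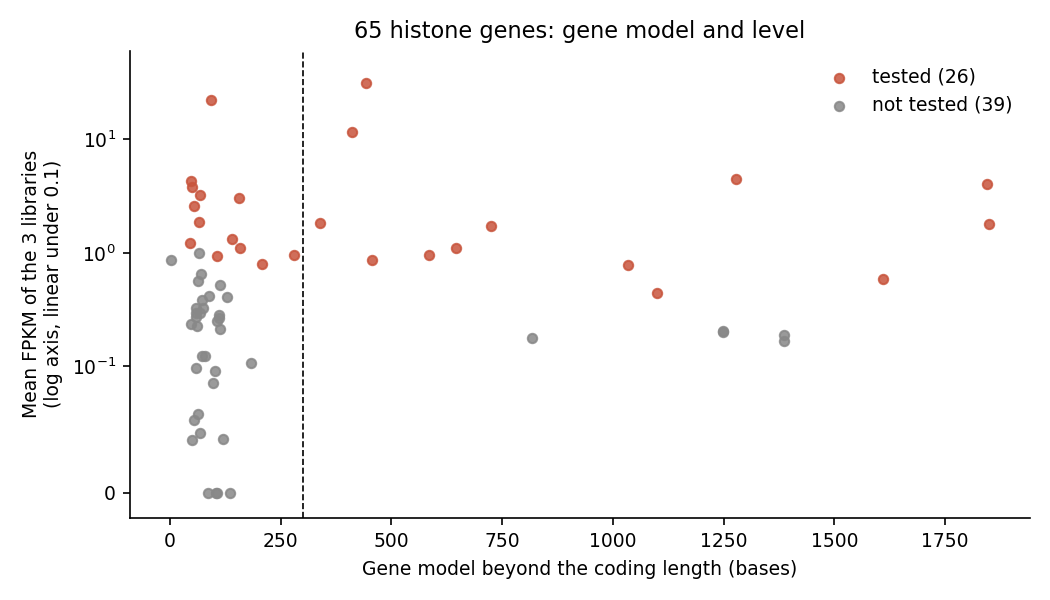
Mean FPKM of the 3 libraries (log axis, linear under 0.1) against the number of bases by which the table's gene model exceeds the coding length, 1 point per histone gene, with the dashed line at 300 bases. Of 18 genes past the line 13 were tested, against 13 of 47 before it.

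The classes were read very unequally. H2B genes held 744, 1239 and 428 reads, which was 51.2%, 56.8% and 44.4% of histone reads in parental 1, resistant 1 and resistant 2. H2A genes held 282, 382 and 175 reads, and H1 genes 229, 328 and 245 reads, nearly all of them on HIST1H1C, since no other H1 gene had more than 6 reads in a library. H4 genes held 130, 125 and 55 reads. H3 genes held 69, 106 and 61 reads, and 3 of 14, HIST1H3E, HIST1H3H and HIST1H3D, had more than 10 reads in a library. The table's gene model can be shorter than the longest GENCODE transcript: 462 against 2679 bases in HIST1H3E and 473 against 1237 in HIST1H3H. In the H2B gene HIST1H2BH it was 425 against 2060. In HIST1H3D the model was the longer, at 865 against 411, and in HIST2H3A both had 1656. Reads past the end of a model may not have been counted, and the part of this in the class counts was not tested.

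**Figure D3:**
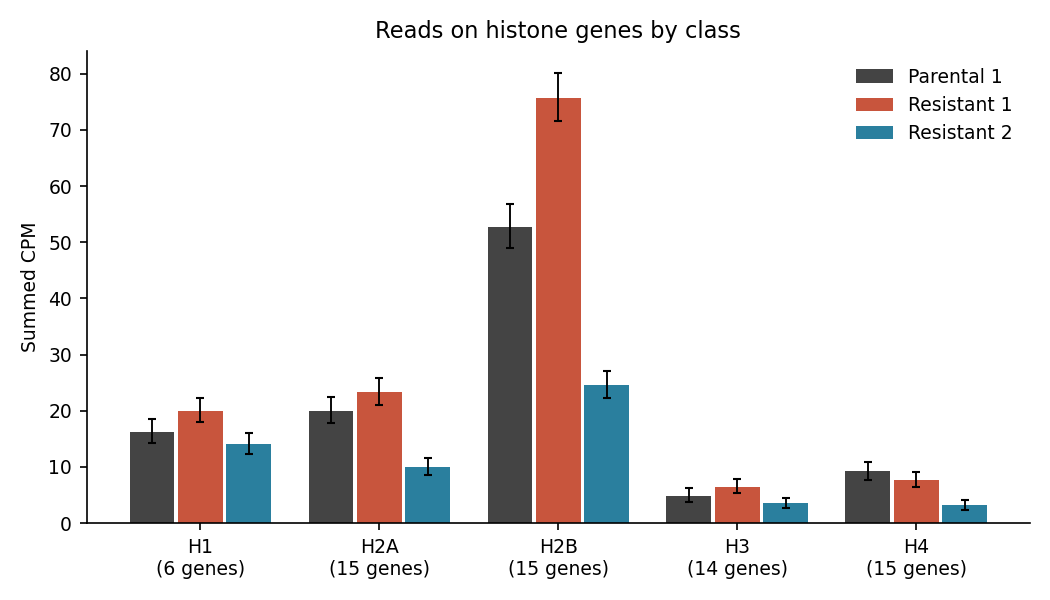
Summed CPM of each histone class in the 3 libraries, with exact 95% binomial (Clopper-Pearson) intervals that cover counting error only. H2B is the highest class in every library, at 52.8, 75.8 and 24.6 CPM, and the H1 sum has the smallest ratio of highest to lowest library, at 16.2, 20.1 and 14.1 CPM.

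Summed over all 65 genes, the 2 resistant libraries lay on opposite sides of the parental one. The sum was 103 CPM in parental 1 (95% Clopper-Pearson interval 97.9 to 109), 133 CPM in resistant 1 (128 to 139) and 55.5 CPM in resistant 2 (52.1 to 59.1). Resistant 1 was at 1.29 times parental 1 (counting interval 1.21 to 1.38) and resistant 2 at 0.538 times (0.495 to 0.584). Between the resistant libraries the ratio was 2.40 (2.22 to 2.59). These intervals compare libraries, not conditions, and reads without molecular identifiers are not independent molecules, so that intervals and floors cover counting error only.

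Resistant 1 was above resistant 2 in the leading genes and in the rest. The 5 leading genes summed to 68.9, 94.1 and 38.2 CPM (resistant 1 over resistant 2, 2.46), and the other 60 to 34.3, 39.2 and 17.3 CPM (2.27, counting interval 1.97 to 2.61). By class the same ratio was 3.07 (2.75 to 3.44) for H2B, 2.41 (1.74 to 3.38) for H4, 2.32 (1.93 to 2.79) for H2A, 1.85 (1.33 to 2.57) for H3 and 1.42 (1.20 to 1.68) for H1. In H4 both resistant libraries were below parental 1, at 9.22, 7.64 and 3.17 CPM, with resistant 1 at 0.828 times parental 1 (0.643 to 1.07) and resistant 2 at 0.343 times (0.246 to 0.474). By cluster it was 2.35 in HIST1, 2.68 in HIST2 and 3.45 in HIST4. In HIST3, with 2, 2 and 5 reads, it was 0.425, with a counting interval of 0.0404 to 2.59 that included 1. The H1 share of histone reads was 15.7%, 15.05% and 25.4%.

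No histone gene passed the test of resistant against parental. With edgeR's quasi-likelihood test and Benjamini-Hochberg adjustment over 15643 genes, 0 of 26 tested histone genes had an adjusted p under 0.05, where 46 genes of all tested were called higher (0.294%) and 91 lower (0.582%). At an unadjusted p under 0.05 the histone count was also 0, against 4.85% of all genes higher and 4.85% lower. DESeq2 called 0 too, but gave no adjusted p for some of the least-read of the 26, such as HIST1H3D and HIST1H4C. The test has 2 resistant libraries and 1 parental, which is assumed to vary like the resistant ones. The spread it measures within a gene is therefore that between resistant 1 and resistant 2, the libraries that differ most in these genes. The standard errors of the histone log2 differences ran from 0.42 to 1.12, and the differences from -1.88 to 1.06, with a median of -0.29 against 0.03 over all genes.

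**Figure D4:**
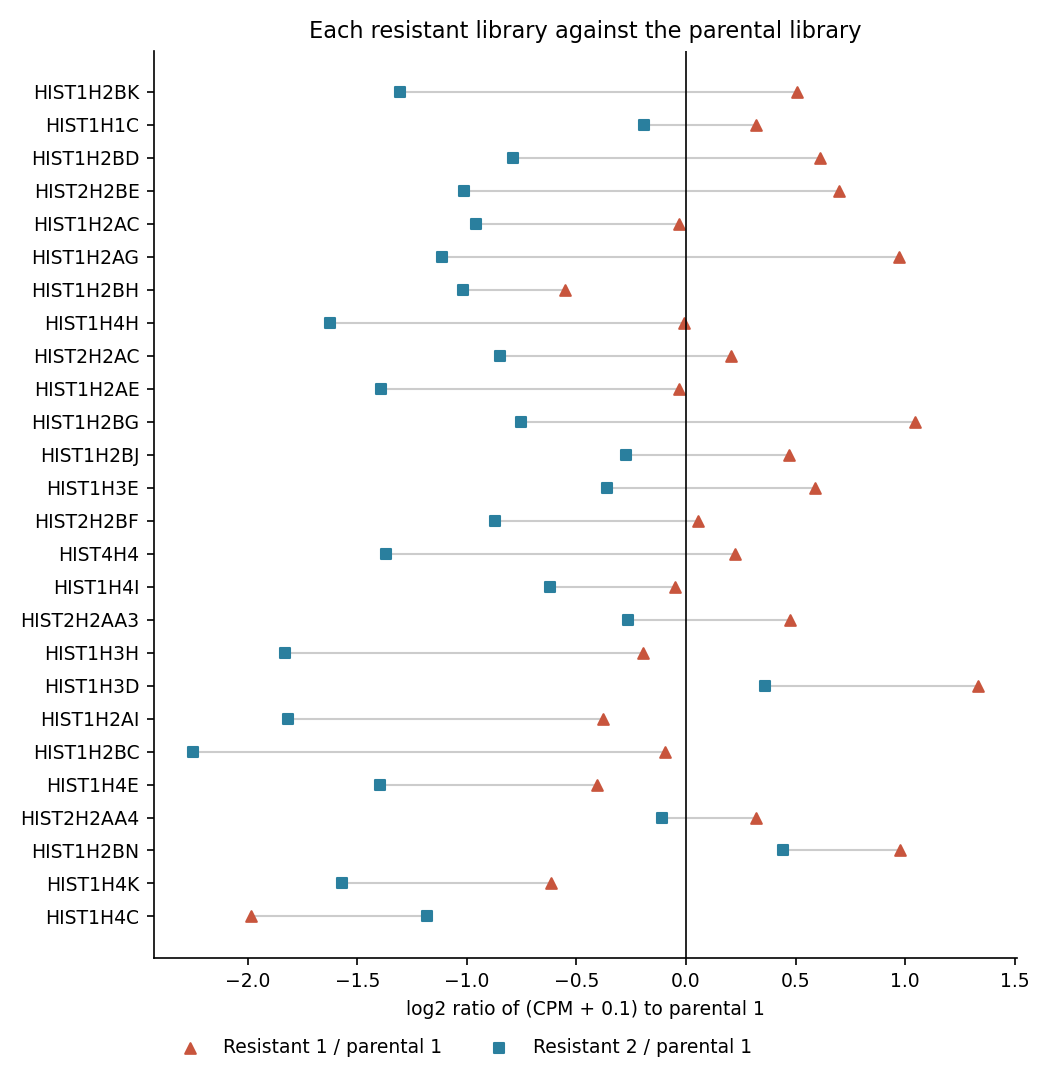
The log2 ratio of (CPM + 0.1) of resistant 1 (triangles) and resistant 2 (squares) to parental 1 for the 26 tested histone genes, with the vertical line at no difference. The triangles have a median of 0.21 and the squares of -0.99, and only HIST1H4C has its triangle left of its square.

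Taken 1 library at a time, parental 1 most often stood between the resistant libraries. Of 26 tested genes, 13 (50%) had parental 1 between them, against 30.3% of all genes. Both resistant libraries were above parental 1 in 2 genes (all genes 35.2%) and both below it in 11 genes (34.5%). The 2 genes above, HIST1H2BN and HIST1H3D, passed the read filter through resistant 1 alone. HIST1H4C and HIST1H4K, among the 11 below, passed it through parental 1 alone, so these counts are partly set by the filter. Resistant 1 was at least 2-fold above parental 1 in 2 genes (all genes 7.1%) and at least 2-fold below in 1 (7.12%). Resistant 2 was at least 2-fold above in 0 genes (10.2%) and at least 2-fold below in 13 genes (7.52%).

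The H2B genes carried most of the difference. HIST1H2BK (ENSG00000197903, minus strand of chr6:27106073-27114619, hg19) had 383 reads in parental 1, 632 in resistant 1 and 190 in resistant 2, or 27.2, 38.6 and 10.9 CPM. Resistant 1 was the highest library and resistant 2 the lowest, each apart from parental 1 by more than the counting error. Resistant 1 stood at 1.42 times parental 1 (1.25 to 1.62) and resistant 2 at 0.403 times (0.336 to 0.480), which gave a log2 difference of -0.13 ± 0.60 (SE, edgeR, adjusted p = 0.986). Its span also holds HIST1H4I on the opposite strand. The gene model of HIST1H2BK has 820 bases of that span, and whether these meet HIST1H4I was not looked up. No source used here states whether strand entered the counting, so it is not known whether reads of the pair could be assigned to either.

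HIST2H2BE (ENSG00000184678, minus strand of chr1:149856010-149858232), an H2B gene of the chromosome 1 cluster, had 121, 229 and 73 reads, or 8.59, 14.0 and 4.20 CPM. HIST1H2BD (ENSG00000158373, plus strand of chr6:26158349-26171577) had 123, 219 and 87 reads, or 8.73, 13.4 and 5.01 CPM. In both genes resistant 1 was highest and resistant 2 lowest, at 3.33-fold (2.55 to 4.40) and 2.67-fold (2.08 to 3.47) between them. Their log2 differences over both resistant libraries were 0.08 ± 0.64 and 0.07 ± 0.58 (SE, edgeR).

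Among the smaller H2B genes the direction between the resistant libraries was the same. HIST1H2BG had 16, 40 and 11 reads, with resistant 1 at 2.15 times parental 1 (1.18 to 4.12). HIST1H2BC had 13, 14 and 2 reads, the largest ratio between the resistant libraries, at 7.43 with a counting interval of 1.71 to 67.4. HIST1H2BH had 36, 28 and 21 reads, with both resistant libraries below the parental one. The counting interval of the ratio between these 2 included 1 (1.42, 0.776 to 2.62). HIST1H2BJ had 17, 28 and 17 reads, HIST2H2BF 19, 23 and 12, and HIST1H2BN 5, 13 and 9. HIST1H2BN was 1 of the 2 tested genes with both resistant libraries above the parental one. The read filter kept any gene with enough reads in 1 library, and HIST1H2BN had them in resistant 1 alone, its highest library.

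The H2A genes were led by HIST1H2AC (ENSG00000180573, plus strand of chr6:26124373-26139344), with 126, 143 and 79 reads, or 8.94, 8.74 and 4.55 CPM. Here the ratio of resistant 1 to parental 1 had an interval that included 1 (0.978, 0.764 to 1.25), and resistant 2 was lower than parental 1 (0.509, 0.379 to 0.679). HIST1H2AG (ENSG00000196787, plus strand of chr6:27100832-27103070) had 49, 113 and 27 reads, or 3.48, 6.91 and 1.55 CPM. It had resistant 1 at 1.99 times parental 1 (1.41 to 2.84), resistant 2 at 0.447 times (0.269 to 0.730) and a ratio of 4.44 (2.90 to 7.04) between them. Its log2 difference was 0.28 ± 0.79 (SE, edgeR). HIST1H2AE had 30, 34 and 13 reads, HIST2H2AC 26, 35 and 17, and HIST1H2AI 15, 13 and 4, with resistant 2 lowest in each.

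HIST2H2AA3 and HIST2H2AA4 are near-identical copies of an H2A gene, so the reads of each are uncertain. HIST2H2AA3 had 12, 20 and 12 reads and HIST2H2AA4 had 8, 12 and 9. Their sum was 20, 32 and 21 reads. The same holds for HIST2H3A, HIST2H3C and HIST2H3D, H3 genes with 12, 23 and 14 reads together, and for HIST2H4A and HIST2H4B, H4 genes with 11, 13 and 4 reads together. None of these 5 was tested.

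HIST1H1C (ENSG00000187837, minus strand of chr6:26055968-26056699) was the only H1 gene tested, with 218, 316 and 235 reads, or 15.5, 19.3 and 13.5 CPM. The order of the libraries was that of the H2B genes HIST1H2BK, HIST2H2BE and HIST1H2BD. The distance was smaller, at 1.25 (1.05 to 1.49) for resistant 1 and 0.875 (0.724 to 1.06) for resistant 2 against parental 1. The ratio of resistant 1 to resistant 2, 1.43 (1.20 to 1.70), did not meet the counting interval of HIST1H2BK (3.53, 2.999 to 4.18). Its log2 difference was 0.09 ± 0.42 (SE, edgeR, adjusted p = 0.986).

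Few H3 and H4 genes had reads enough to place, as counted on the table's gene models. HIST1H3E had 15, 27 and 14 reads and HIST1H3H 18, 18 and 5. HIST1H3D had 6, 20 and 10 reads, the second gene with both resistant libraries above the parental one and the highest log2 difference of the 26 (1.06 ± 1.02, SE, edgeR, adjusted p = 0.859). Without resistant 1 that difference was 0.36, and HIST1H3D had passed the read filter through resistant 1 alone, its highest library.

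Among the H4 genes, HIST1H4H, the best read, had 33, 38 and 12 reads, with resistant 2 at 0.295 times parental 1 (0.139 to 0.586). HIST4H4, alone on chromosome 12, had 19, 26 and 8 reads. HIST1H4I had 17, 19 and 13 reads, HIST1H4E 13, 11 and 5, and HIST1H4K 10, 7 and 3. HIST1H4C had 11, 2 and 5 reads and was the 1 tested gene in which resistant 1 stood below resistant 2. It also had the lowest p of the 26 (log2 difference -1.88 ± 1.12, SE, edgeR, adjusted p = 0.680). HIST1H4C and HIST1H4K passed the read filter through parental 1 alone, the highest library of each, so their place at the low end is partly set by the filter.

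Between the resistant libraries, 25 of 26 tested histone genes stood higher in resistant 1, against 7911 of all 15643 genes tested. Of the 25, HIST1H2BN, HIST1H3D and HIST2H2AA4 had passed the read filter through resistant 1 alone, so their direction is partly set by the filter. Over the 16 histone genes with more than 10 reads in every library the median log2 ratio was 1.00. Over all 26 it was 0.98, against 0.01 over all genes tested. With a pseudocount of 1 CPM in place of 0.1 it was 0.55, and 20 of the 26 genes had a mean under 2 CPM. The counting interval of the ratio lay above 1 in 15 histone genes and included 1 in 11. Such intervals were not counted over all genes, so these 2 counts have no background to be read against. With 0.1 CPM added to each level, resistant 2 was at least 2-fold above resistant 1 in 0 of 26, against 7.31% of all genes. By the same rule resistant 1 was at least 2-fold above resistant 2 in 12 of 26, against 4.1%. Of genes within the members' range of mean CPM 6.27% passed the same 2-fold mark. Among genes under 2 CPM it was 8 of 20 histone genes against 10.7%, and among those with at least 5 CPM 3 of 5 against 3.16%. With 1 library on each side this has no replicate check.

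**Figure D5:**
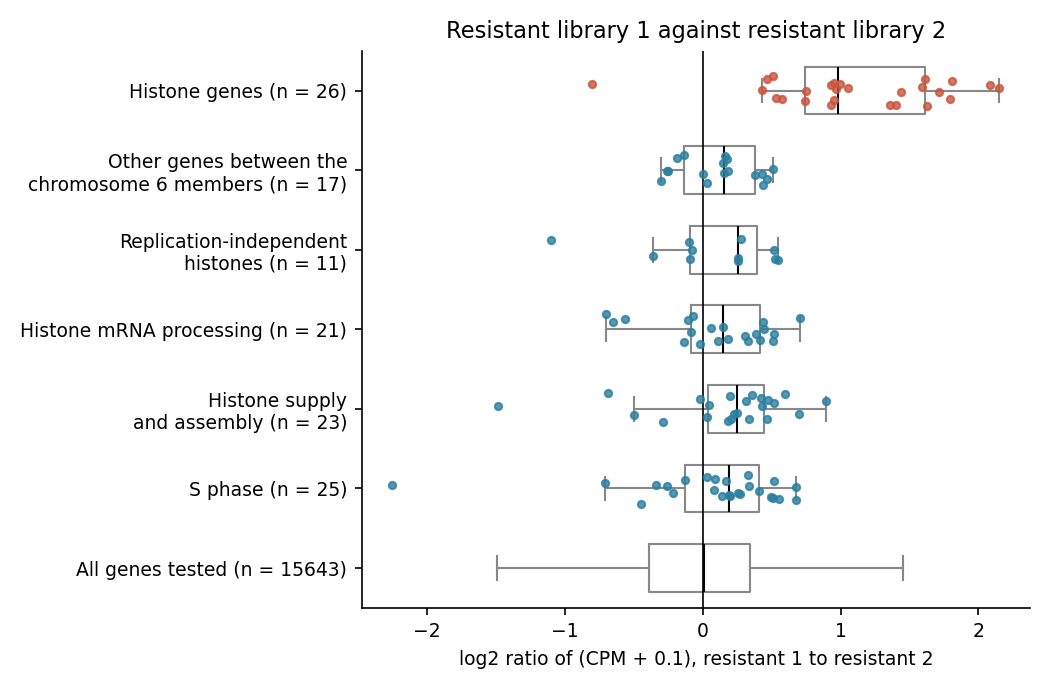
The log2 ratio of (CPM + 0.1), resistant 1 to resistant 2, for the tested histone genes, for other lists of genes and for all genes tested. Boxes show the quartiles and the median, whiskers reach the last gene within 1.5 box lengths, points are genes, and the histone median of 0.98 compares with medians of 0.15 to 0.26 in the 5 other lists.

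Genes around the histone genes, and genes that work with them, had smaller ratios. The 17 other tested genes lying between the chromosome 6 members had a median log2 ratio of 0.15 between the resistant libraries, and the 20 within 0.5 Mb of the chromosome 1 members had 0.03. The replication-independent histones, most of which are made outside S phase too from polyadenylated mRNA, had a median log2 ratio of 0.26 over 11 tested genes, of which 6 stood higher in resistant 1. Their highest 4 were H3F3B at 1088, 1064 and 888 CPM, H3F3A at 499, 352 and 290, H2AFY at 339, 244 and 258, and H2AFV at 306, 266 and 222. None of the 11 was called, 1 had an unadjusted p under 0.05 and DESeq2 called 0, but without a filter on low counts edgeR called 1.

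In both cases that gene was H1F0, the replication-independent linker histone H1.0, known to accumulate in cells that leave the cycle. It had 1116, 2504 and 5693 reads, or 79.2, 153 and 328 CPM. Parental 1 was the lowest library and resistant 2 the highest, whereas HIST1H1C was lowest in resistant 2. Its log2 difference was 1.60 ± 0.50 (SE, edgeR, adjusted p = 0.278).

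Genes that process histone mRNA had a median log2 ratio of 0.15 over 21 tested genes, with 0 called, 1 at an unadjusted p under 0.05 and 0 by DESeq2. SLBP was at 54.8, 76.7 and 77.8 CPM, and LSM10, the 1 gene under 0.05 unadjusted, at 21.5, 41.0 and 36.9 CPM. Of the 21 genes, 13 stood higher in resistant 1 than in resistant 2. NPAT, the activator of histone transcription, was at 17.0, 19.99 and 15.3 CPM. The 4 highest of the list were UPF1 at 490, 300 and 443 CPM, DHX9 at 411, 400 and 279, SRRT at 358, 350 and 366, and SYMPK at 156, 154 and 251.

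Chaperones and assembly factors had a median log2 ratio of 0.25 over 23 tested genes, 18 of them higher in resistant 1, with 0 called, 1 (NAP1L4) at an unadjusted p under 0.05 and 0 by DESeq2. Their highest 4 were SUPT16H at 440, 445 and 274 CPM, NASP, the H1 and H3 chaperone, at 405, 374 and 292, SSRP1 at 435, 296 and 286, and NAP1L1 at 299, 223 and 179.

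The 25 S-phase genes, given because histone mRNA is made in that phase, had a median log2 ratio of 0.19, with 0 called, 2 at an unadjusted p under 0.05 and 0 by DESeq2. MCM7 was at 915, 865 and 848 CPM, UHRF1 at 454, 266 and 338, RRM1, a subunit of the ribonucleotide reductase that gemcitabine inhibits, at 219, 114 and 545, and MCM2 at 290, 279 and 243. RRM1 was highest in resistant 2, and 18 of the 25 genes stood higher in resistant 1 than in resistant 2. The summed S-phase level was 4062, 3585 and 3808 CPM. The higher sum in resistant 2 than in resistant 1 rested on RRM1, which differed between them by more than the sums did. The part of cell-cycle state, confluence or RNA quality in the histone split was not tested.

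The authors' mean normalized counts, which cover libraries without a label here as well, were lower in the resistant group for most members. Over all 65 genes these means summed to 1625 in the parental and 1266 in the resistant group, a log2 ratio of -0.36. Of 26 tested genes, 20 had the lower mean in the resistant group and 6 the higher, with a median log2 ratio of -0.43 against 0.02 over all genes. HIST1H2BK had authors' means of 473 and 314, HIST1H1C of 229 and 224, and HIST2H2AC, the tested gene with the highest such ratio, of 23.2 and 46.8.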

How the data were processed

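The libraries were made from RNA captured on poly-T beads and sequenced by Novogene. The submitters' processing notes name CASAVA 1.8 and hg19. The aligner, the counter, strand use and the treatment of reads with several matches are not given in the sources used here. The authors deposited raw read counts per gene, FPKM, and a mean signal per group (counts divided by size factors), used only as the authors' means. Their columns of log2 fold change, p and adjusted p were not used, nor were 6 columns of libraries without a label here.

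Counts of 3 libraries (2 resistant, 1 parental; 14475531 to 17461941 reads) were fitted with edgeR 4.0.16 (TMM, filterByExpr, quasi-likelihood test, 1 residual degree of freedom) in R 4.3.3, with Benjamini-Hochberg adjustment over 15643 genes. DESeq2 1.42.0 was an alternative. The fit was tested on simulated data, where it called 4 of 50 genes changed 2-fold and 26 of 50 changed 4-fold, so smaller differences are mostly missed. The changed genes were drawn from all genes tested. Of the 26 histone genes 20 had a mean under 2 CPM, so changes in them may be missed more often. Log2 ratios of libraries and counts of genes at 2-fold used CPM plus 0.1, which shrinks the ratios of genes with few reads. Ratios printed with a counting interval used CPM with nothing added. Intervals were exact binomial (Clopper-Pearson) at 95%, conditional on both counts for ratios. Symbols were matched to GENCODE 29 and RefSeq by name or older name.

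The genes and lists were chosen with earlier results of these data known. Named genes were the 25 histone genes with the highest mean CPM, the 3 with the largest resistant 1 to resistant 2 ratio in each direction and near-identical copies, and in other lists genes past the threshold and the 4 highest. SLBP, LSM10, NPAT, H1F0, NAP1L4 and the genes at 0 were named after their values were seen. p-values rest on the spread between the 2 resistant libraries, from clones of 1 line, and on the spread that the test borrows from all genes tested. Scaling, filter, tool, pseudocount, member set and left-out libraries were varied.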

Additional observations from a re-analysis of the deposited data

Results flagged for a closer look

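The 13 rows of histone pseudogenes, which stand outside the protein-coding genes compared, held reads above the parental level in resistant 1. They summed to 4.34 CPM in resistant 1 (71 reads), 2.84 CPM in parental 1 (40 reads) and 1.55 CPM in resistant 2 (27 reads). Resistant 1 was at 1.53 times parental 1, with a counting interval of 1.02 to 2.31. HIST2H2BC led with 19, 36 and 12 reads in parental 1, resistant 1 and resistant 2, followed by HIST2H2BD with 14, 17 and 10 and HIST1H1PS1 with 6, 11 and 0. These rows are close copies of the protein-coding genes, and the part of shared reads was not tested.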

How the results depend on the processing

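The count of histone genes called was 0 under each scaling, filter and tool run; it could not be refitted without a library, since 1 against 1 has no residual degree of freedom. The count over all genes moved from 137 (33.6% of them higher) to 235 with RLE scaling (40.9%), 253 with DESeq2 (51.0%), 534 without a filter (51.1%) and 1517 at an unadjusted p. Without a filter 1 replication-independent histone, H1F0, was called. The median histone log2 difference ran from -0.99 without resistant 1 to 0.21 without resistant 2, with no test. The signs of the 26 genes were as reported under RLE scaling and DESeq2, but 9 turned without resistant 1, 4 without resistant 2 and 9 in the authors' means. In parental 1, resistant 1 and resistant 2, the summed level was 34.3, 39.2 and 17.3 CPM without the 5 listed genes and 76.0, 94.6 and 44.6 CPM without HIST1H2BK (chosen after seeing the data). Genes read numbered 22, 24 and 16 at more than 10 reads, 18, 19 and 7 at 1 CPM, and 3, 3 and 2 among pseudogene rows (added after seeing the data). With a pseudocount of 1 CPM, also added later, the median log2 ratio of resistant 1 to resistant 2 was 0.55.

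No paired analysis was possible because the groups share only 1 replicate number. Depth limits the smaller genes: 39 of 65 had too few reads to test, with at most 9 in a library. With 1 parental library, the parental level rests on that library alone.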

Other observations

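Other RNAs without a poly(A) tail were looked up for comparison, and 5 of 13 listed were in the table. RN7SL1, the RNA of the signal recognition particle, was at 149 CPM in parental 1, 154 CPM in resistant 1 and 244 CPM in resistant 2, so that resistant 2 was the highest library, unlike in the histone genes. SCARNA2 had 6, 17 and 9 reads, RPPH1 7, 1 and 8, SNORD3A 2, 8 and 5, and SCARNA10 1, 0 and 0. Their part in the histone reads was not tested.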
